A study of Mus musculus with 18 samples.

Results

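The proteins encoded by the genes described here bring precursor proteins into mitochondria and put together respiratory complexes I and IV. The genes were taken by name from the deposited table: the translocase genes beginning with Tomm and Timm, the numbered Ndufaf genes, Cox10 to Cox20, Sco1, Sco2, Surf1 and Coa3 to Coa7. There were 50 such entries among the 22021 genes listed, and 47 of them reached a level of 1 CPM (read counts scaled to a common library total) in at least 4 of 16 libraries and were tested, of 14214 genes tested in all. The 3 entries that were not tested were Tomm20l (0 to 0.46 CPM), Cox11 (0 to 0.65 CPM) and Timm8a2 (0 CPM in every library). Timm10b was listed under 2 gene identifiers, so the 47 entries stand for 46 symbols.

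Nearly all mitochondrial proteins are encoded in the nucleus, made on cytosolic ribosomes and imported. Precursors are recognised by receptors and cross the outer membrane through the TOM complex; the TIM23 complex then takes those with a presequence into the matrix or inner membrane, and the small TIM chaperones and the TIM22 complex deliver carrier proteins to the inner membrane. Complexes I and IV join imported subunits to subunits made inside the organelle, and dedicated assembly factors insert their copper and haem and hold the intermediates together. Sensory neurons of the dorsal root ganglion (DRG) have very long axons that depend on mitochondria, and mitochondrial damage in them is a known feature of neuropathy after paclitaxel, a chemotherapy drug that stabilises microtubules.

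The study sequenced RNA from mouse DRG in 4 groups of 4 biosamples: input and pulldown from normal mice, and input and pulldown from mice given paclitaxel. All mice carried Nav1.8-Cre and the Rosa26fsTRAP allele on a C57BL/6J background, so that the ribosomal protein L10a fused to EGFP was made in cells with a history of Nav1.8 (Scn10a) promoter activity, most of them nociceptors. They were of both sexes and 8 to 12 weeks old. Paclitaxel was injected intraperitoneally at 4 mg/kg every other day over 8 days, 4 injections and 16 mg/kg in total. The protocol mentions mice dosed with vehicle, but the control libraries are labelled normal, and whether they are those mice is not given in the sources used here. For translating ribosome affinity purification (TRAP), tagged ribosomes were pulled down with anti-GFP beads from a supernatant cleared at a speed meant to remove mitochondria, and a portion of that same supernatant was the input. Neither fraction therefore is whole ganglion RNA. Biosample 7 was sequenced as 2 subsamples per fraction, which were averaged into 1 replicate, and the number of mice behind a biosample is not given in the sources used here.

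The libraries held 4266007 to 14478012 reads over the listed genes in input and 5972327 to 32713515 in TRAP, recovered from the step between the values of each library, and 3 reads corresponded to 0.0917 to 0.703 CPM. The sum of 8 nociceptor markers was higher in the pulldown than in its own input in 4 of 4 normal and 4 of 4 paclitaxel biosamples, and the sums of the satellite glia, Schwann cell, fibroblast, macrophage and endothelial markers were lower in all of them. Of the 8 nociceptor markers, 2 were called higher and 2 lower in normal TRAP, and 5 higher and 0 lower after paclitaxel. The non-neuronal sums did not reach 0 in any group; that of the Schwann cell markers was 5772 to 10318 CPM in normal input and 1894 to 3051 CPM in normal TRAP. The sum of 5 pan-neuronal markers was 11391 to 14148 CPM in normal input against 6447 to 8583 CPM in paclitaxel input, and 19106 to 40877 CPM in normal TRAP against 10984 to 18010 CPM in paclitaxel TRAP. In such bulk samples, fewer cells of a type and less RNA per cell cannot be told apart.

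The upstream sequences of these genes were examined first, because they are shared features that the choice of the genes did not use. RefSeq promoter windows of 300 bases (250 before and 50 after the start, GRCm38.p6) were found for 39 of the 46 symbols, 42 windows in all. The letters CCGGAAG on either strand, the core of many ETS factor motifs, occurred in 19 of the 42 windows (45.2%), in 15.2% of the 13862 windows of tested genes and in 8.86% of all 32851 windows. The YY1 motif occurred in 4 windows (9.52%, against 2.76% of those of tested genes and 1.36% of all), and the NRF1 motif in 4 (9.52%, against 8.95% and 4.60%). Both strands were searched for each. A palindrome such as CTTCCGGAAG counts as 1 match on each strand. Shown here are the 250 bases before the start for 4 genes whose pulldown values are described below, 5′ to 3′ on the gene's own strand, with matches in capitals: Timmdc1 (chr16:38522664-38522913, minus strand, 4 ETS matches) and Tomm22 (chr15:79670618-79670867, plus strand, 2 ETS matches), whose mRNAs were higher in the normal pulldowns, and Timm8b (chr9:50603651-50603900, plus strand, 1 ETS match) and Ndufaf4 (chr4:24897833-24898082, plus strand, 1 NRF1 match), whose mRNAs were lower there.
Timmdc1: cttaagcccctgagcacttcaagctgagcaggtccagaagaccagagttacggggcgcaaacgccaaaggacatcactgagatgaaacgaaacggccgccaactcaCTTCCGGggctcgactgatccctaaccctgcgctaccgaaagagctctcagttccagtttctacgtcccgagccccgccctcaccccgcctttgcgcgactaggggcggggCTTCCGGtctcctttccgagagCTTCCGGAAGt
Tomm22: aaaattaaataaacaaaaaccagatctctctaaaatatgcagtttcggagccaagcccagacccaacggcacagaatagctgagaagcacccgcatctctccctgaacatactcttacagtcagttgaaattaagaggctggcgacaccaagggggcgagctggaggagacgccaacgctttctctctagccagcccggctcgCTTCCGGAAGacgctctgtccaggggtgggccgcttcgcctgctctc
Timm8b: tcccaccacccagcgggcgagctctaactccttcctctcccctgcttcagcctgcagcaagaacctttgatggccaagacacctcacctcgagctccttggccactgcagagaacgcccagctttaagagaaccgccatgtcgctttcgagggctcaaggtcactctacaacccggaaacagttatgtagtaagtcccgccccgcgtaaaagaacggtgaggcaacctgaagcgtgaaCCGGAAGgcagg
Ndufaf4: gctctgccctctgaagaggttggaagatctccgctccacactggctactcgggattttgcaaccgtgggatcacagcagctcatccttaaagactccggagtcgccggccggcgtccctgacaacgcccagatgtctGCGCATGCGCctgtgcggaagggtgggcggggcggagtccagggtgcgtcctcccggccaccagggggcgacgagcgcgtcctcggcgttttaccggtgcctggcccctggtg
All 4 were chosen from called genes with a match, and ETS letters stood before genes that were higher (Timmdc1, Tomm22) and lower (Timm8b). Called genes without an ETS match also occurred on both sides, such as Timm13 (higher) and Ndufaf7 (lower), and matches were not counted by call. The 300-base window of Timm8b also held an NRF1 match that is not wholly within the bases shown. A match describes the letters only and shows no bound factor.

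Transcript levels of the 47 entries spanned from 0.895 to 428 CPM in the mean of all inputs, with a median of 24.8 CPM. These are 3′ end counts that are not divided by transcript length. A level also depends on whether the gene model holds the 3′ end in use, so comparisons between genes are rough. RefSeq models ended over 500 bases beyond those of GENCODE vM21 for 5 of the 50 entries. Among them were Ndufaf5 (15276 bases), Timm10b (ENSMUSG00000089847, 12111 bases) and Ndufaf6 (2054 bases). The 10 most abundant made up 68.6% of the summed signal: Cox17, Tomm7, Cox14, Timm13, Tomm70a, Tomm6, Coa5, Tomm20, Coa3 and Cox20, all above 100 CPM. Another 29 lay between 10 and 100 CPM, and 8 below 10 CPM, among them both Ndufaf1 (5.22 ± 1.98 CPM in normal input, SD, n = 4) and Timm23 (1.68 ± 1.5 CPM). Timm23 encodes a core channel subunit, yet was listed at 0.23 to 3.69 CPM in normal input and 0 to 0.04 CPM in normal TRAP, whereas its partners Timm17a and Timm44 stood at 62.2 to 90.8 and 16.3 to 22.2 CPM in normal input. Cox11, a copper chaperone of complex IV, was also near 0, and its RefSeq model ended 1046 bases beyond the GENCODE vM21 model; whether reads fell there was not tested. The summed level of the 47 was 2770 to 4215 CPM in normal input, 2602 to 3815 in normal TRAP, 3325 to 3737 in paclitaxel input and 4188 to 4803 in paclitaxel TRAP. It was higher in the pulldown in 2 of 4 normal and 4 of 4 paclitaxel biosamples, and in the paclitaxel groups input and TRAP did not overlap. The longest annotated transcript of these genes had a median of 2007 bases, against 3473 over 14192 tested genes.

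In normal ganglia, 13 of the 47 (27.7%) passed the test between pulldown and input, against 29.8% of all genes tested: 4 were higher in TRAP (8.51%, background 5.09%) and 9 lower (19.1%, background 24.7%). After paclitaxel 6 passed (background 27.9%), 5 of them higher (10.6%, background 4.92%) and 1 lower (2.13%, background 23.0%). The count in normal ganglia was near the background, and after paclitaxel the share called lower was below it. The 9 lower calls in normal ganglia include Timm8a1, which passed the filter mainly through normal input. Calls are limma adjusted p-values under 0.05 over all 14214 genes, on log2(CPM + 1) with input and TRAP paired by biosample, and log2 changes are on that scale. Both treatments were fitted together, so their standard errors and p-values share 1 estimate of the spread per gene. Leaving out a biosample of one treatment can therefore also move a call in the other. The median log2 change of the 47 was -0.19 in normal ganglia and 0.17 after paclitaxel, where that of all genes tested was -0.66 and -0.56. Both of these medians depend on how libraries are scaled: with median-ratio scaling, quantile normalization or edgeR on the recovered reads, the members' median in normal ganglia was 0.25, 0.10 or 0.33, and the median of all genes -0.32, 0.00 or -0.44. The 47 stood above the median of all genes in every one of these scalings, by 0.46 in the CPM fit and 0.57, 0.10 and 0.77 in the others, and by 0.73, 0.74, 0.46 and 0.93 after paclitaxel. Only Timmdc1 and Timm13 passed in both treatments, 2 of the 13 (15.4%) and 2 of the 6 (33.3%), and 30 passed in neither. By biosample, 19 to 21 of the 47 were higher in the pulldown than in its input in normal ganglia and 24 to 30 after paclitaxel. Across the 47 genes, which are not replicates and share libraries, the normal and paclitaxel changes had a Pearson r of 0.465, against 0.608 over all genes tested.

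**Figure D1:**
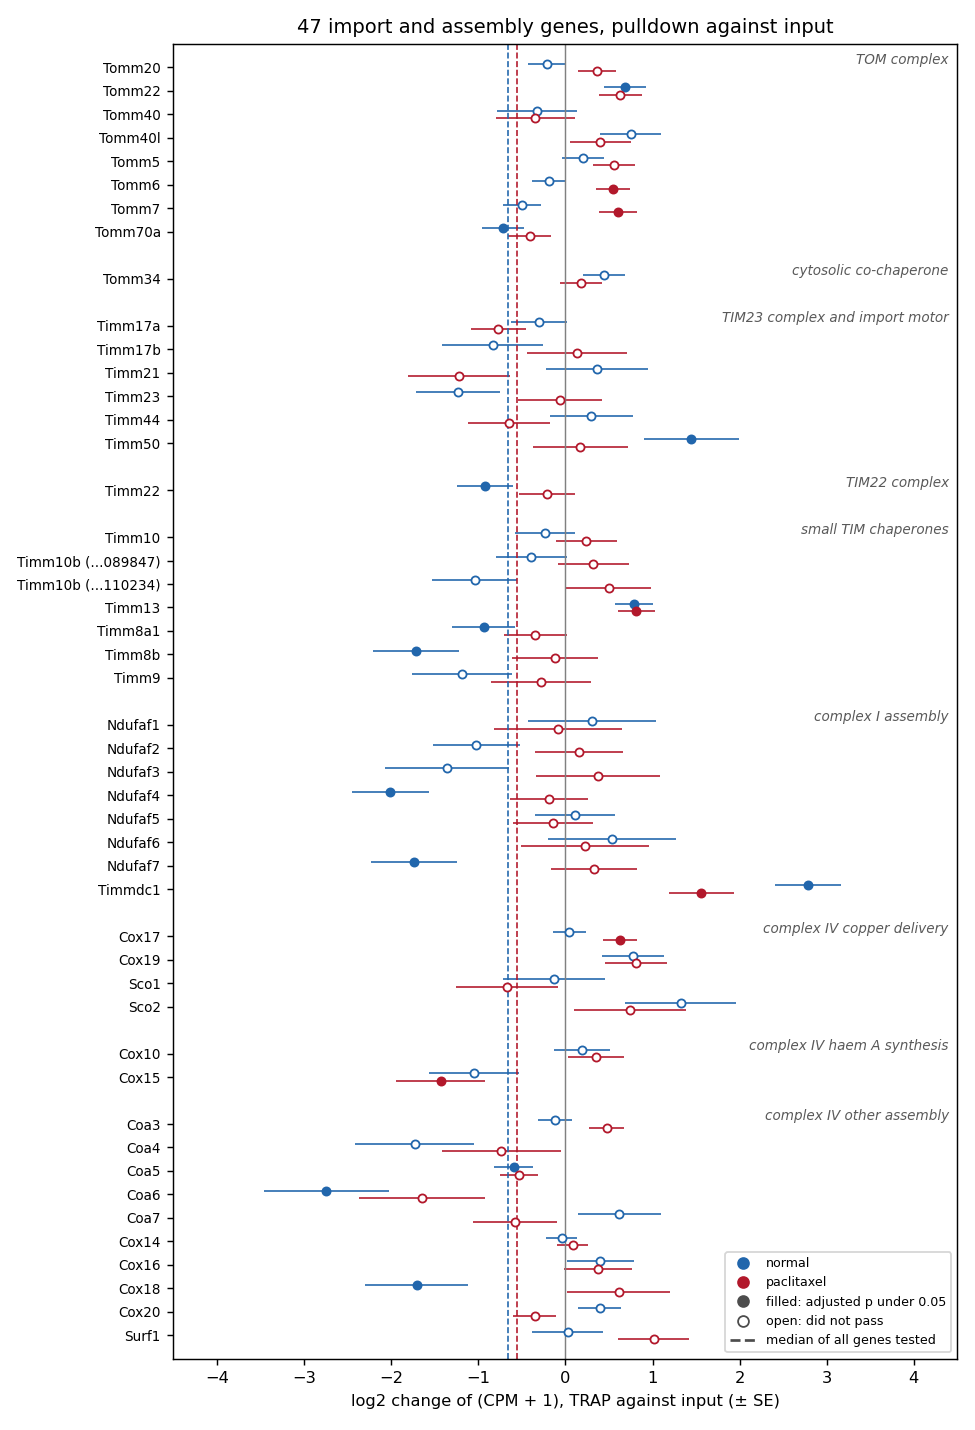
Log2 change of CPM + 1 between TRAP and input (x axis) for each of the 47 entries, grouped by role, in normal (blue) and paclitaxel (red) biosamples, n = 4 each. Bars are standard errors from 1 fit of both treatments, which share 1 estimate of the spread per gene. Filled points passed limma at adjusted p under 0.05. The dashed lines mark the medians of all genes tested (-0.66 and -0.56), which move to -0.32 and -0.28 with median-ratio scaling. Timmdc1 lies far right in both treatments, at 2.79 and 1.56.

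Of the TOM complex, 8 genes were tested. Tomm22 encodes the central receptor, which also organises the complex. Values are given in biosample order, 1 to 4 for normal and 5 to 8 for paclitaxel. Tomm22 read 63.5, 88.3, 82.1 and 53.2 CPM in normal input and 161, 136, 116 and 65.8 CPM in normal TRAP. The pulldown was higher in 4 of 4 biosamples, although the groups overlapped through biosample 4, and the log2 change was 0.68 ± 0.25 (SE, limma adjusted p = 0.0388). That call was lost without biosample 1, 2 or 3 (adjusted p = 0.0655 to 0.213). After paclitaxel, values of 66.6, 70.7, 71.7 and 66.5 CPM in input and 139, 119, 84.3 and 94 CPM in TRAP did not overlap, and the change of 0.63 ± 0.25 (SE, limma adjusted p = 0.0587) did not pass.

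The small subunits Tomm5, Tomm6 and Tomm7 steady the pore and its assembly. Tomm7 read 175, 526, 266 and 119 CPM in normal input and 198, 194, 178 and 108 CPM in normal TRAP. Biosample 2 had the highest input value, TRAP was lower in 3 of 4 biosamples, and the change, which did not pass, was -0.50 ± 0.22 (SE, limma adjusted p = 0.0828). After paclitaxel, input was 249, 212, 417 and 482 CPM and TRAP 422, 273, 697 and 706 CPM, higher in TRAP in 4 of 4 biosamples with overlapping groups. That log2 change was 0.60 ± 0.22 (SE, limma adjusted p = 0.0402), and the call was lost without biosample 5, 6, 7 or 8 (adjusted p = 0.0717 to 0.147). Tomm6 did not overlap between fractions after paclitaxel, with 147, 156, 169.6 and 188 CPM in input and 199, 195, 292 and 298 CPM in TRAP. It rose by 0.55 ± 0.19 (SE, limma adjusted p = 0.0378), a call that was lost without biosample 5, 6, 7 or 8 (adjusted p = 0.0686 to 0.153) but stood under all 4 scalings. In normal ganglia Tomm6 was lower in TRAP in 4 of 4 biosamples by -0.19 ± 0.19 (SE, limma adjusted p = 0.460), which did not pass. Tomm5 was at 0.20 (adjusted p = 0.535) and 0.56 (adjusted p = 0.0842) in normal and paclitaxel biosamples, neither passing.

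Tomm70a, the receptor for carrier precursors and a docking site for cytosolic chaperones, fell in normal TRAP, from 145, 228, 224 and 119.8 CPM in input to 49.1, 111, 141 and 156 CPM. It was lower in 3 of 4 biosamples and higher in biosample 4, the groups overlapped, and the fitted difference was -0.72 ± 0.24 (SE, limma adjusted p = 0.0295). The call was lost without biosample 1, 2 or 3 (adjusted p = 0.0696 to 0.214), and with median-ratio scaling (adjusted p = 0.397) or edgeR (adjusted p = 0.564). After paclitaxel the change was -0.41 (adjusted p = 0.206), lower in 4 of 4 biosamples. Tomm20, the presequence receptor, read 184, 235, 181 and 156 CPM in normal input and 155, 265, 146 and 114 CPM in normal TRAP, with overlapping groups and no passing change in either treatment (-0.21, adjusted p = 0.481, and 0.36, adjusted p = 0.216). The pore gene Tomm40 was at 16, 31.2, 20.7 and 10.6 CPM in normal input and 11.4, 35.7, 9.87 and 10.2 CPM in normal TRAP, where only biosample 2 was high, and its changes were -0.33 (adjusted p = 0.599) and -0.34 (adjusted p = 0.593). Its paralogue Tomm40l was listed at a higher level, at 66.7 ± 11.8 CPM in normal input (SD, n = 4) against 19.6 ± 8.78 CPM for Tomm40. Tomm34, a cytosolic co-chaperone that binds Hsp70 and Hsp90, passed in neither treatment, at 0.45 (adjusted p = 0.158) and 0.18 (adjusted p = 0.600).

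Among the 6 genes of the TIM23 complex and its import motor, 1 passed. Timm50, the receptor that receives presequences from the TOM complex, read 8.97, 10.4, 12.6 and 13.8 CPM in normal input and 64.5, 43.6, 33 and 11.7 CPM in normal TRAP. Biosamples 1 to 3 were far above input and biosample 4 was not, so the groups overlapped; the change was 1.45 ± 0.54 (SE, limma adjusted p = 0.0470). That call was lost without biosample 1, 2, 3, 7 or 8 (adjusted p = 0.0543 to 0.246). After paclitaxel Timm50 overlapped between fractions, at 7.43 to 15.6 CPM in TRAP and 7.28 to 12 CPM in input, with a change of 0.17 (adjusted p = 0.835). Timm23 was lower in normal TRAP in 4 of 4 biosamples without overlap (3.69, 0.94, 1.86 and 0.23 against 0, 0.04, 0 and 0 CPM), and its change of -1.24 ± 0.48 (SE, limma adjusted p = 0.0540) did not pass. Input 4 and all 4 pulldowns were under the level of 3 reads in their library. Timm44, which tethers the Hsp70 motor to the channel, was at 16.3, 22.2, 19.8 and 16.6 CPM in normal input and 22.8, 26.8, 32.3 and 14.2 CPM in normal TRAP, with changes of 0.30 (adjusted p = 0.648) and -0.65 (adjusted p = 0.311). The channel genes Timm17a and Timm17b and the coupling factor Timm21 did not pass either, with log2 changes from -0.84 to 0.37 in normal ganglia and from -1.22 to 0.13 after paclitaxel.

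The small TIM proteins are intermembrane-space chaperones that work in pairs, Timm9 with Timm10 and Timm8 with Timm13. Timm13 rose in the pulldown in both treatments. In normal biosamples it read 122, 310.3, 294 and 154 CPM in input and 384, 333, 546 and 218 CPM in TRAP, higher in TRAP in 4 of 4 with overlapping groups, a change of 0.79 ± 0.21 (SE, limma adjusted p = 0.00931). After paclitaxel, 308, 292, 253 and 334 CPM in input and 539.7, 391, 448 and 774 CPM in TRAP did not overlap, and the change was 0.81 ± 0.21 (SE, limma adjusted p = 0.00780). The normal call was lost without biosample 1 (adjusted p = 0.105) and the paclitaxel call without biosample 8 (adjusted p = 0.0501). Both stood under all 4 scalings.

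The Timm8 genes, whose products pair with that of Timm13, were called lower in normal ganglia. Timm8b read 16.4, 115, 44.2 and 17.8 CPM in normal input and 18.2, 2.76, 24.7 and 6.86 CPM in normal TRAP. The input of biosample 2 stood far above the others, TRAP was lower in 3 of 4 biosamples, and the groups overlapped. The change was -1.72 ± 0.49 (SE, limma adjusted p = 0.0124), and the call was lost without biosample 2 (adjusted p = 0.163), where the log2 change was -0.64. After paclitaxel it was -0.12 (adjusted p = 0.878). Timm8a1 was called lower, with a change of -0.94 ± 0.36 (SE, limma adjusted p = 0.0497) and values of 2.78, 1.33, 1.66 and 0.23 CPM in normal input and 0.05, 0, 1.03 and 0 CPM in normal TRAP. Input 4 and pulldowns 1, 2 and 4 were under the level of 3 reads in their library. The gene reached 1 CPM only in normal inputs 1, 2 and 3 and in normal pulldown 3. It thus passed the filter mainly through the group where it was high, which favoured a lower call. Timm8a1 was listed at 0 in all paclitaxel TRAP libraries, and its normal call was lost without any 1 of biosamples 5 to 8 (adjusted p = 0.0563 to 0.0626); without biosample 1, 2 or 3 it did not reach the filter and was not tested.

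Timm9 was at 9.88, 23.4, 17.8 and 6.8 CPM in normal input and 9.13, 3.24, 4.65 and 5.02 CPM in normal TRAP, lower in 4 of 4 biosamples with overlap, and Timm10 at 38.9, 48.4, 32 and 27 CPM and 44.5, 24.9, 26.2 and 28.6 CPM. Neither passed in normal ganglia (-1.18, adjusted p = 0.119, and -0.23, adjusted p = 0.625) or after paclitaxel (-0.28, adjusted p = 0.742, and 0.24, adjusted p = 0.628). Timm10b, which docks the chaperones on the carrier translocase, had one identifier at 56.7 ± 6.31 CPM in normal input (SD, n = 4) and a second, overlapping it on the same strand, at 1.19 ± 0.818 CPM; reads of these entries cannot be told apart, and neither passed. Timm22, the channel of the carrier translocase, read 40.8, 55.7, 50.1 and 43.8 CPM in normal input and 9.18, 37.8, 42.8 and 23.3 CPM in normal TRAP. It was lower in 4 of 4 biosamples, lowest in biosample 1, with overlapping groups and a change of -0.92 ± 0.32 (SE, limma adjusted p = 0.0343). The call was lost without biosample 1 or 4 (adjusted p = 0.0668 to 0.222), and under each of the other scalings (adjusted p = 0.265 with median-ratio scaling).

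Of the 8 complex I assembly genes, Timmdc1 had the largest change in both treatments. Timmdc1 (chr16:38498347-38522663, minus strand, protein-coding, GRCm38) encodes a membrane protein with a TIM17/TIM22-like fold that helps build the membrane arm of complex I. In normal input it read 8.49, 11.1, 14.4 and 16.6 CPM and in normal TRAP 106, 85.4, 70.0 and 106 CPM. After paclitaxel, input was 13.2, 14.6, 15 and 8.57 CPM and TRAP 44, 46.4, 35.9 and 31.7 CPM. With the subsamples of biosample 7 averaged, every pulldown stood above every input in both treatments, and the paclitaxel pulldowns were all below the normal ones. The log2 change was 2.79 ± 0.38 (SE, limma adjusted p = 1.43e-05) in normal ganglia and 1.56 ± 0.38 (SE, limma adjusted p = 0.00448) after paclitaxel. Both calls passed in all 23 alternatives tried, with log2 changes of 2.40 to 3.40 in normal and 1.22 to 2.11 in paclitaxel biosamples. The subsamples of paclitaxel pulldown 7 were at 59.3 and 12.5 CPM, and those of its input at 15.9 and 14.2 CPM, so subsample 2 of the pulldown was below its own input. The RefSeq model of Timmdc1 ended 504 bases beyond the GENCODE vM21 model.

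Ndufaf4 and Ndufaf3 form an early assembly module of complex I. Ndufaf4 read 58.4, 55.5, 70.2 and 53.9 CPM in normal input and 1.45, 20.8, 34.9 and 24.9 CPM in normal TRAP. Each pulldown was lower than each input, with biosample 1 the lowest. The change was -2.01 ± 0.44 (SE, limma adjusted p = 0.00208), and the call held with each biosample left out in turn (adjusted p = 0.00216 to 0.0232) but did not pass with edgeR (adjusted p = 0.0696) or without biosamples 1, 2, 5 and 6 (adjusted p = 0.0563). Without biosample 1 the change was -1.15. After paclitaxel, 56.1, 58.5, 45.5 and 38.7 CPM in input and 71, 51.6, 33.9 and 27.1 CPM in TRAP overlapped, a change of -0.19 (adjusted p = 0.774). Ndufaf3 was low and uneven, at 3.97, 15.3, 3.73 and 2.81 CPM in normal input and 0.2, 0.6, 10.8 and 0.5 CPM in normal TRAP, and passed in neither treatment (-1.35, adjusted p = 0.146, and 0.38, adjusted p = 0.716).

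Ndufaf7, a methyltransferase that modifies a core complex I subunit, was also lower in normal TRAP without overlap, 16.7, 36.3, 23.7 and 20.9 CPM in input against 3.89, 1.68, 14.9 and 12.9 CPM. The change was -1.74 ± 0.49 (SE, limma adjusted p = 0.0114), and the call was lost without biosample 2 (adjusted p = 0.0962). After paclitaxel it was at 34.2, 32.6, 35.6 and 38.4 CPM in input and 26.5, 55, 66.9 and 39.6 CPM in TRAP, 0.33 (adjusted p = 0.638). Ndufaf1, a core member of the intermediate assembly complex, scattered widely in TRAP, with 15.2, 0.26, 6.3 and 18.4 CPM in normal and 16.1, 3.33, 2.29 and 7.66 CPM in paclitaxel pulldowns, and its changes were 0.31 (adjusted p = 0.769) and -0.08 (adjusted p = 0.940). Ndufaf2, Ndufaf5 and Ndufaf6 did not pass, at -1.02, 0.11 and 0.54 in normal ganglia.

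**Figure D2:**
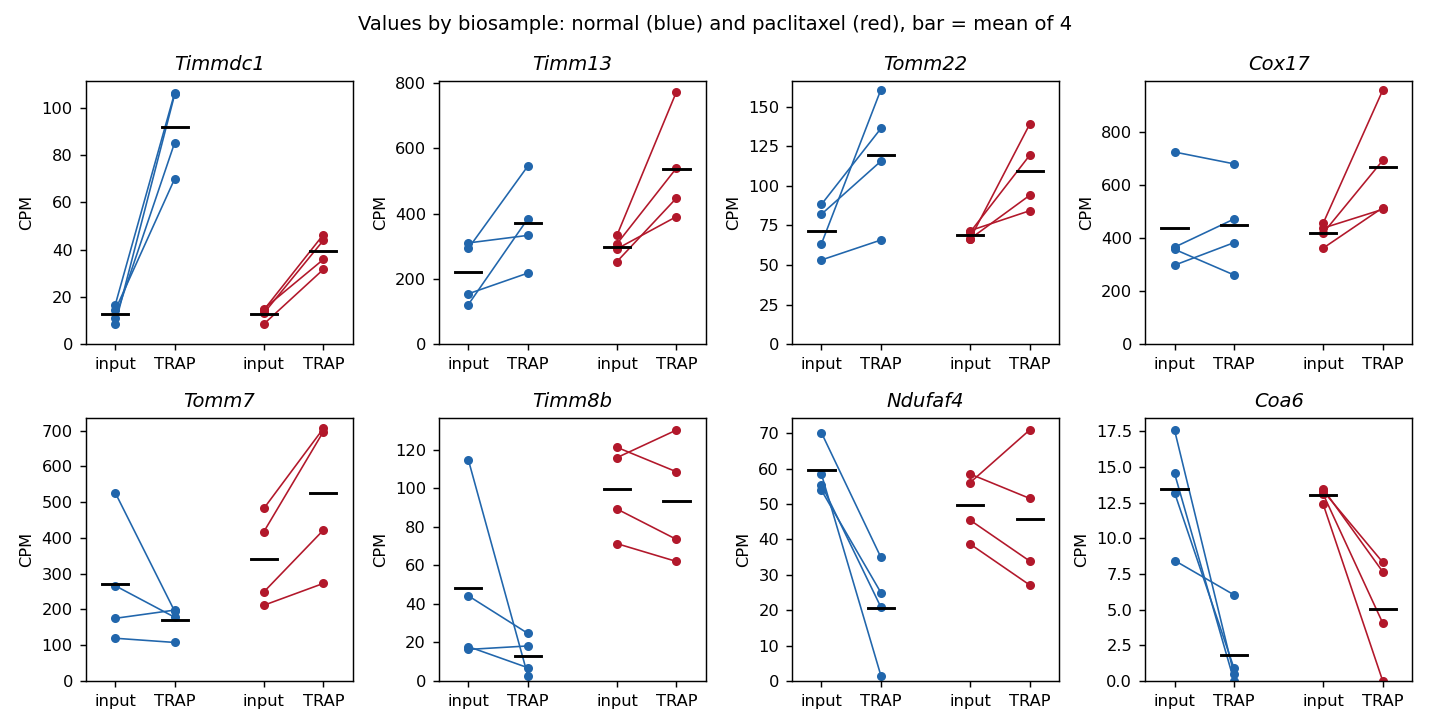
CPM in input and TRAP for 8 of the genes, 1 panel each, with lines joining the fractions of a biosample, normal in blue and paclitaxel in red, and bars at the mean of 4. Timmdc1 rises in all 8 biosamples, from 8.49 to 16.6 CPM in input to 31.7 to 106 CPM in TRAP, whereas Ndufaf4 and Coa6 fall in all 4 normal biosamples.

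Complex IV needs copper, which Cox17 carries across the intermembrane space to Sco1, Sco2 and Cox11. Cox17 was the most abundant of all these transcripts in input, with 366, 725, 298 and 358 CPM in normal input and 472, 680.0, 383 and 261 CPM in normal TRAP, which overlapped (0.05, adjusted p = 0.870). After paclitaxel, 419, 457, 362 and 438 CPM in input and 693, 957, 515 and 509 CPM in TRAP did not overlap, and biosample 6 was the highest pulldown. The subsamples of pulldown 7 were at 624 and 405 CPM, so the groups did not overlap only with them averaged. Cox17 rose by 0.63 ± 0.19 (SE, limma adjusted p = 0.0175), a call that was lost without biosample 5 or 6 (adjusted p = 0.0822 to 0.143). Sco1 read 12.9, 10.4, 18.5 and 19.2 CPM in normal input and 2.89, 15.9, 35.1 and 17.4 CPM in normal TRAP, with no passing change (-0.13, adjusted p = 0.878, and -0.67, adjusted p = 0.402). Cox19, a second copper-binding intermembrane protein, was higher in TRAP in 4 of 4 biosamples of each treatment but did not pass (0.78, adjusted p = 0.0978, and 0.81, adjusted p = 0.0906), and Sco2 did not pass either (1.32, adjusted p = 0.117, and 0.74, adjusted p = 0.398).

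Cox10 and Cox15 make haem A, the haem of complex IV. Cox15 was the single gene called lower after paclitaxel, with 25.3, 29.5, 27.5 and 26.5 CPM in input and 19.3, 3.18, 7.43 and 15.6 CPM in TRAP. Every pulldown lay below every input, lowest in biosample 6, and the change was -1.43 ± 0.51 (SE, limma adjusted p = 0.0395). The call was lost without biosample 3, 6, 7 or 8 (adjusted p = 0.0511 to 0.233), and under each of the other scalings (adjusted p = 0.119 with median-ratio scaling). The subsamples of pulldown 7 were at 0 and 14.9 CPM, and the call was also lost with subsample 2 of biosample 7 alone. In normal ganglia Cox15 was lower in 4 of 4 biosamples without passing, at -1.05 (adjusted p = 0.119). Cox10 passed in neither, at 0.19 (adjusted p = 0.663) and 0.35 (adjusted p = 0.427).

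The other 10 complex IV assembly genes gave 3 calls, all lower in normal TRAP. Coa6, which helps deliver copper to the Cox2 subunit, fell from 14.5, 17.6, 13.2 and 8.44 CPM in normal input to 0, 0.45, 0.88 and 6.03 CPM in TRAP, without overlap and with biosample 4 alone well above 1 CPM. The change was -2.74 ± 0.72 (SE, limma adjusted p = 0.00708); the call held with each biosample left out in turn (adjusted p = 0.00354 to 0.0498) but did not pass with edgeR (adjusted p = 0.133) or without biosamples 1, 2, 5 and 6 (adjusted p = 0.108), an alternative chosen after seeing the data. After paclitaxel the values were 13.1, 12.4, 13.4 and 13.3 CPM in input against 4.06, 0, 7.66 and 8.32 CPM in TRAP. These groups did not overlap only with the subsamples of biosample 7 averaged. In them pulldown 7 was at 14.8 and 0.5 CPM, and its input at 14.4 and 12.5 CPM. The paclitaxel change of -1.64 ± 0.72 (SE, limma adjusted p = 0.0894) did not pass. Cox18, the insertase for the Cox2 tail, read 11.9, 12.2, 14 and 9.61 CPM in normal input and 4.74, 1.08, 6.97 and 1.51 CPM in normal TRAP. It was lower without overlap, by -1.71 ± 0.59 (SE, limma adjusted p = 0.0329), and the call was lost without biosample 1, 2 or 4 (adjusted p = 0.0518 to 0.115). In paclitaxel biosamples Cox18 was at 15.1, 10.9, 17.3 and 21 CPM in input and 26.9, 46.2, 20.3 and 14.2 CPM in TRAP, 0.61 (adjusted p = 0.451). Coa5 had a change of -0.59 ± 0.22 (SE, limma adjusted p = 0.0453) in normal TRAP, lower in 4 of 4 biosamples with overlap, and its call was lost without biosample 1, 3, 4, 5, 7 or 8 (adjusted p = 0.0524 to 0.166).

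Coa3 and Cox14 bind the newly made Cox1 subunit. Coa3 was at 127, 224, 135 and 129.6 CPM in normal input and 124, 176, 131 and 126 CPM in normal TRAP, slightly lower in 4 of 4 (-0.12, adjusted p = 0.671), and at 140.1, 141, 135 and 161 CPM and 199.8, 159.6, 224 and 225 CPM after paclitaxel, higher in 4 of 4 (0.47, adjusted p = 0.0772). Surf1, mutated in a form of Leigh syndrome, did not overlap between paclitaxel input (17.7, 13.4, 27.8 and 28 CPM) and TRAP (30.6, 34.9, 66 and 48.2 CPM), and its change of 1.01 ± 0.41 (SE, limma adjusted p = 0.0664) did not pass; in normal ganglia it was 0.03 (adjusted p = 0.964). Cox14 was at 322 ± 64.1 CPM in normal input and 310.0 ± 40.2 CPM in normal TRAP (SD, n = 4), a change of -0.04 (adjusted p = 0.874). Coa4, Coa7, Cox16 and Cox20 passed in neither treatment. Cox20 overlaps Hnrnpu (mean 508.5 CPM) on the opposite strand and Cox16 overlaps Gm20498 (mean 26.4 CPM) on the same strand, so their reads may include those of the neighbour. Other genes also overlap listed genes on the opposite strand. Among them are Cox15 (Entpd7 and Cutc), Timm8b (Nkapd1), Tomm6 (Usp49), Tomm34 (Stk4), Ndufaf2 (Smim15) and Sco2 (Ncaph2). The mean of Entpd7 was near that of Cox15, and those of Smim15 and Ncaph2 were above Ndufaf2 and Sco2. The strand setting of counting is not given, so the same limit holds for these genes, and the neighbours' part was not tested.

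Whether treatment altered the enrichment was tested as the difference between the paclitaxel and the normal pulldown-against-input changes. None of the 47 passed in limma, against 27 of 14214 genes (0.190%, with 0.162% higher and 0.0281% lower). With edgeR none of the 47 passed, and 0 of all genes. With limma, 11 had an unadjusted p under 0.05 (23.4%, against 11.3% of all genes), 9 of them higher after paclitaxel. With edgeR 7 of the 47 did, against 1203 of the 14214 genes. The median difference of the 47 was 0.30, that of all genes 0.02, and 29 of the 47 had the larger change after paclitaxel. With edgeR the median was 0.02. The smallest adjusted p was that of Tomm7, at 1.10 ± 0.31 (SE, limma adjusted p = 0.125). Next in size among the smallest were Ndufaf7 at 2.06 (adjusted p = 0.230), Ndufaf4 at 1.82 (adjusted p = 0.241) and Cox18 at 2.32 (adjusted p = 0.270). For each of these the 4 paclitaxel differences lay above the 4 normal ones, with the subsamples of biosample 7 averaged. For Timmdc1 all 4 lay below, at -1.22 (adjusted p = 0.382). A call in one treatment and not in the other is therefore not shown to differ between them.

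The pulldowns were also compared directly between treatments, a comparison that shares its TRAP libraries with those above. In TRAP, 2 of the 47 passed (4.26%, background 1.82%), both higher after paclitaxel (background 1.33%) and none lower (background 0.492%). Timm8b read 18.2, 2.76, 24.7 and 6.86 CPM in normal and 73.5, 62, 130.3 and 109 CPM in paclitaxel TRAP. The lowest paclitaxel pulldown was above the highest normal one, and the log2 change was 3.05 ± 0.58 (SE, limma adjusted p = 0.0189). Its inputs read 16.4, 115, 44.2 and 17.8 CPM in normal and 89.3, 71.3, 116 and 121 CPM in paclitaxel libraries, overlapping through biosample 2, with a change of 1.44 (adjusted p = 0.120) that did not pass. The call was lost without biosample 2, 4, 7 or 8 (adjusted p = 0.0510 to 0.128), though it stood under all 4 scalings.

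Tomm7 read 198, 194, 178 and 108 CPM in normal and 422, 273, 697 and 706 CPM in paclitaxel TRAP, again without overlap. The change was 1.56 ± 0.33 (SE, limma adjusted p = 0.0307), and the call was lost without biosample 1, 2, 4, 7 or 8 (adjusted p = 0.0683 to 0.141); with median-ratio scaling adjusted p was 0.0581. In input Tomm7 was at 0.46 (adjusted p = 0.546). Beside these calls, the pan-neuronal marker sum was lower in paclitaxel than in normal pulldowns, as given above, with 2 of its 5 genes at a positive change and none called. The sum of the 6 satellite glia markers was 159.9 to 279 CPM in normal and 347 to 399.8 CPM in paclitaxel TRAP, without overlap and with none called. Of the 8 nociceptor markers, 2 were called higher, with a median change of 0.90 and sums of 6247 to 8982 CPM in normal and 6170 to 7500 CPM in paclitaxel TRAP. The part of these markers in the results was not tested. The median change of the 47 in TRAP was 0.40, that of all genes 0.17, and 0.19 and 0.01 with median-ratio scaling.

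Several others did not overlap between normal and paclitaxel pulldowns but did not pass. The share of all tested genes without overlap was not counted, here or in the other comparisons, so no background stands beside these genes. Timmdc1 was lower after paclitaxel, at -1.19 ± 0.31 (SE, limma adjusted p = 0.0646), with inputs at 0.03 (adjusted p = 0.968). Tomm34 was lower in both fractions, -1.18 ± 0.31 (SE, limma adjusted p = 0.0667) in TRAP and -0.91 ± 0.23 (SE, limma adjusted p = 0.0548) in input, and its inputs read 151, 82.8, 91 and 119 CPM in normal and 60.6, 69.7, 46.3 and 53.1 CPM in paclitaxel ganglia. With median-ratio scaling, quantile normalization or edgeR both Timmdc1 and Tomm34 were called lower in paclitaxel TRAP. Ndufaf7 (2.63, adjusted p = 0.0648), Cox18 (2.70, adjusted p = 0.0929) and Ndufaf2 (2.32, adjusted p = 0.157) were higher in paclitaxel TRAP without passing, as were Timm22 (1.06, adjusted p = 0.273) and Tomm70a (0.83, adjusted p = 0.226). For Timm22 and Tomm70a the groups did not overlap only with the subsamples of biosample 7 averaged. Timm22 was at 58.0 and 35.7 CPM in those of pulldown 7 and up to 42.8 CPM in normal TRAP. Tomm70a was at 144 and 205 CPM there and up to 156 CPM in normal TRAP. Ndufaf7 was called higher with quantile normalization (adjusted p = 0.0416) and edgeR (adjusted p = 0.0482). In all, edgeR called 5 of the 47, against 193 higher and 285 lower among the 14214 genes.

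**Figure D3:**
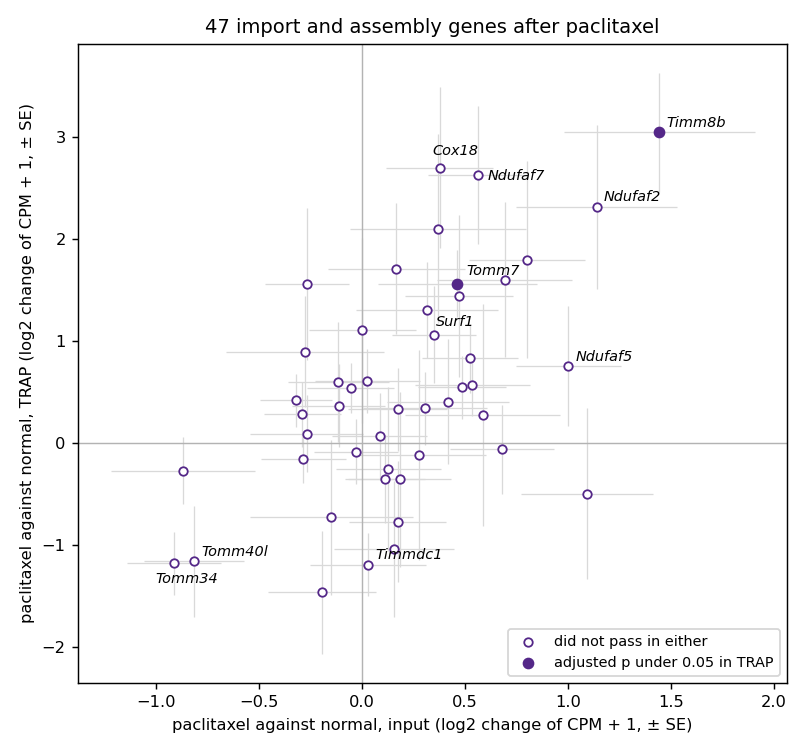
Log2 change of CPM + 1 from normal to paclitaxel in input (x axis) and in TRAP (y axis) for the 47 entries, with standard errors, n = 4 libraries a group. Timm8b and Tomm7 (filled) passed in TRAP, at 3.05 and 1.56; no gene passed in input, and Tomm34 lies low on both axes.

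In input none of the 47 passed between treatments (background 1.64%). With limma, 12 had an unadjusted p under 0.05 (25.5%, against 19.1% of all genes). With edgeR 8 did, against 2528 of the 14214 genes. After adjustment 1 of the 47 passed with edgeR, against 98 higher and 46 lower among all genes. The median change was 0.17, that of all genes 0.14. Tomm34 came nearest, as above; with edgeR it was the gene that passed. Ndufaf5, which hydroxylates a complex I subunit, did not overlap between 9.18, 14.8, 20.0 and 14.1 CPM in normal and 27.4, 26, 34.3 and 29.2 CPM in paclitaxel input, a change of 1.00 ± 0.25 (SE, limma adjusted p = 0.0590). Timm21 (1.09, adjusted p = 0.0937) and Coa4 (0.80, adjusted p = 0.149) were higher without overlap and Tomm40l (-0.81, adjusted p = 0.0995) lower, none passing. Once biosample 2 was left out, 4 of the 47 were called higher and 1 lower, while the calls over all genes went from 207 higher and 26 lower to 652 and 175. Beside these values, the erythroid and brown fat marker sums were 847 to 1189 and 201 to 416 CPM in normal input and 1600 to 3726 and 422 to 630 CPM in paclitaxel input; their part in the differences was not tested.

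The rest of the pathway was read from 2 lists. Of 22 other import genes tested (the sorting and assembly machinery, the motor, processing peptidases, the intermembrane-space oxidation pathway and chaperonins), 3 were higher (13.6%, background 5.09%) and 6 lower (27.3%, background 24.7%) in normal TRAP. After paclitaxel 3 were higher (13.6%, background 4.92%) and 1 lower (4.55%, background 23.0%), and the medians were -0.53 and 0.10. The largest of these in normal ganglia were Pmpca, a processing peptidase subunit (0.82), Samm50, the outer membrane insertase (0.73), and Hspa9, the matrix Hsp70 (0.68), and on the lower side Oxa1l, the inner membrane insertase (-2.16), Grpel2 (-1.95), Dnajc19 (-1.88) and Pmpcb (-1.02). The peptidase subunits Pmpca and Pmpcb, which work as a pair, were thus called in opposite directions. After paclitaxel Romo1, an inner membrane protein linked to the TIM23 complex, went from 95.7 ± 22 CPM in input to 314 ± 74.2 CPM in TRAP (SD, n = 4), a change of 1.70 ± 0.35 (SE, limma adjusted p = 0.00136). It was also the one gene of this list called between treatments, from 74.9 ± 35.3 CPM in normal TRAP, by 2.17 ± 0.37 (SE, limma adjusted p = 0.0136). Hspe1 (1.02) and Immp1l (0.95) were the others called higher after paclitaxel, and Mtx3 (-1.80) was lower.

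Of 26 other assembly factors, 2 were higher (7.69%, background 5.09%) and 4 lower (15.4%, background 24.7%) in normal TRAP. After paclitaxel 1 was higher (3.85%, background 4.92%) and 3 lower (11.5%, background 23.0%), and the medians were -0.37 and -0.14. Lrpprc, which stabilises mitochondrial mRNAs, was higher in both treatments (0.80 and 0.63), and Acad9 (-1.96 and -1.35) and Tmem70 (-1.01 and -0.97), which serve complex I and complex V respectively, were lower in both. Taco1, a translational activator of Cox1, was called higher in normal ganglia (1.92), Sdhaf4 and Sdhaf3, which assemble complex II, lower (-1.36 and -1.23), and Atpaf1, for complex V, lower after paclitaxel (-1.86). Acad9 and Ndufaf1 belong to the same complex I assembly complex, yet Ndufaf1 did not pass.

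Detection differed between libraries and did not simply follow the number of reads. Paclitaxel pulldown 6 held 32713515 reads and 10399 genes at 1 CPM or more, and normal input 4 held 4266007 reads and 13449 genes. Of the 47 genes, 0 to 3 were under 1 CPM in an input library, 17 (36.2%) in subsample 1 of paclitaxel pulldown 7, and 2 to 9 in the other TRAP libraries. In that subsample 43.4% of all tested genes were under 1 CPM. Subsample 2 of that pulldown had 3. In subsample 1 Tomm5 was at 7.31 CPM and Tomm40l at 0, against 122 and 48.5 CPM in subsample 2. Without biosamples 1, 2, 5 and 6, the biosamples with the fewest pulldown genes at 1 CPM or more once subsamples were averaged, the normal comparison gave 3 higher and 2 lower calls and the paclitaxel comparison 3 and 0; this was chosen after seeing the data.

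**Figure D4:**
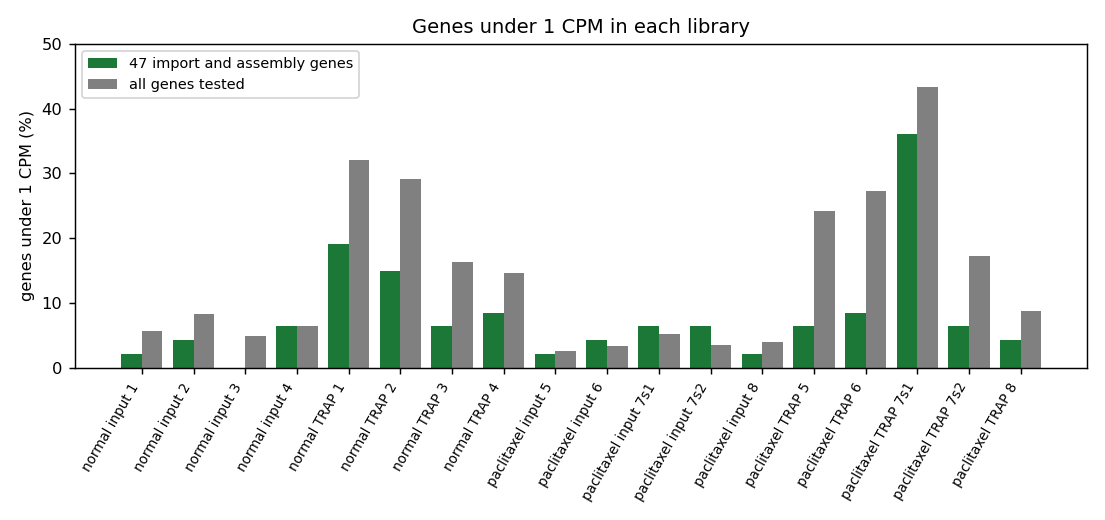
Share of genes under 1 CPM (y axis, percent) in each of the 18 libraries, for the 47 genes (green) and for all genes tested (grey). Over all genes tested, every pulldown has a larger share than every input, and subsample 1 of paclitaxel pulldown 7 has the most, 36.2% and 43.4%.

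The split between higher and lower calls depended on the scaling. The edgeR fit, counted here as 1 of the 4 scalings, also differed in model and test, so its change is not one of scaling alone. In normal ganglia the 4 higher and 9 lower calls became 8 and 3 with median-ratio scaling, 8 and 2 with quantile normalization and 8 and 0 with edgeR. After paclitaxel 5 and 1 became 11 and 0, 9 and 0, and 10 and 0. All genes moved in the same sense: 17.1% of calls in normal ganglia were higher in the CPM fit and 45.2%, 48.5% and 67.2% in the others. After paclitaxel it was 17.6% in the CPM fit and 39.4%, 47.6% and 59.9% in the others. Timmdc1, Timm13, Timm50 and Tomm22 were called higher in normal TRAP under all 4 scalings, and Timmdc1, Timm13 and Tomm6 after paclitaxel. No gene was called lower under all 4, and 13 of the 47 changed sign between scalings in normal ganglia and 10 after paclitaxel.

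**Figure D5:**
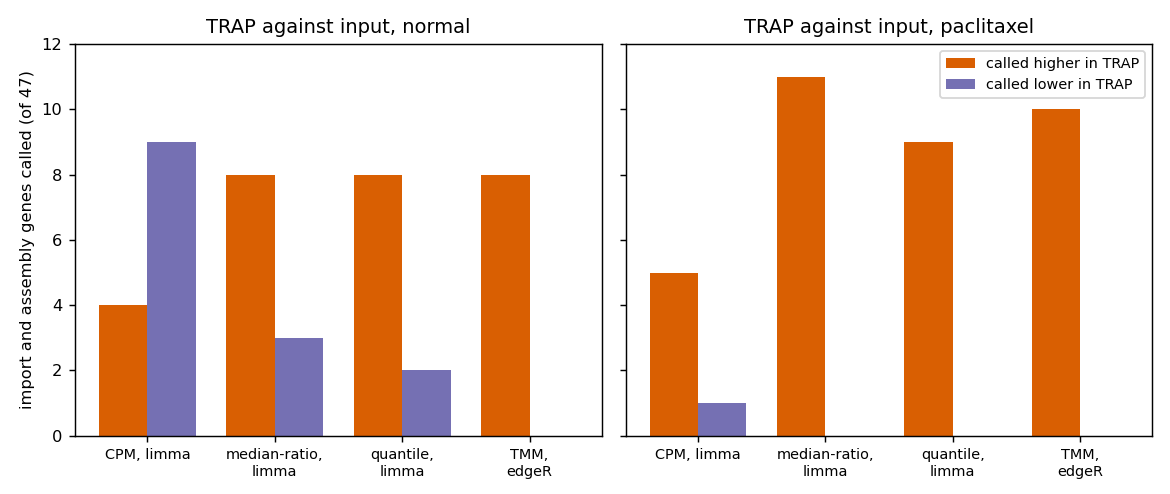
Number of the 47 genes called higher (orange) and lower (violet) in TRAP than in input (y axis) under 4 scalings (x axis), in normal (left) and paclitaxel (right) biosamples. The edgeR fit also differs from the other 3 in model and test. Higher calls go from 4 to 8 in normal and from 5 to between 9 and 11 in paclitaxel biosamples, and lower calls from 9 to between 0 and 3 and from 1 to 0.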

How the data were processed

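RNA from input and TRAP fractions of mouse DRG was sequenced as QuantSeq 3′ end libraries, per the labels' protocols. Per the submitters' processing notes, the tools were Cufflinks 2.2.1, Bowtie2 2.2.9, TopHat2 2.1.1 and, for read quality, FastQC 0.11.5, with build GRCm38.p4, and the file header names GENCODE vM10; the order of steps and the strand setting of counting are not given in the sources used here. The values the authors deposited are headed TPM, but 98.0% to 99.0% of the non-zero values in each library were whole multiples of 1 step (within 0.0051 CPM) with no division by length, so they were treated as CPM. Depth is recovered from that step. The 2 merged columns were not used.

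The 2 subsamples of biosample 7 were averaged in each fraction. Genes at 1 CPM or more in at least 4 of 16 libraries were tested with limma 3.58.1 (R 4.3.3, intensity trend, not robust) on log2(CPM + 1), two-sided, with Benjamini-Hochberg adjustment over 14214 genes. Pulldown against input and the interaction had biosample as a block, since both fractions came from 1 homogenate; each pulldown's deviations correlated best with those of its own input (r of 0.053 to 0.376). These 3 comparisons came from 1 fit of all 16 libraries, with 1 estimate of the spread per gene. Paclitaxel against normal was tested in the 8 TRAP and 8 input libraries separately. Nothing says how many mice a biosample holds, so p-values measure the spread between these samples. The script was tested on simulated data. Alternatives were edgeR 4.0.16 on recovered reads and other scalings, pseudocounts, filters, thresholds, blocks and left-out biosamples.

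The genes and lists were chosen with earlier results of these data known. Values are given in full for up to 6 called genes per comparison and direction and for 14 representatives; the remaining called genes are named as well. Of the other import and assembly genes, up to 4 per comparison and direction are named. Promoters and gene models are from RefSeq (GRCm38.p6) and GENCODE vM21; protein sequences were not used here.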

Additional observations from a re-analysis of the deposited data

Results flagged for a closer look

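In 188 groups of 4 libraries, 15 (7.98%) had 1 value far from the other 3 by a gap test, and 7 of the 15 were in biosample 2. Chance passes that test in about 1 of 20 groups if values are normally distributed, which was not checked for these CPM values. The share over all tested genes was not counted. In normal input of biosample 2, Cox17 was at 724.6 CPM, Coa3 at 223.9 and Ndufaf3 at 15.3. In the normal pulldown of biosample 2, Coa3 was at 175.9 CPM, Tomm40 at 35.71, Timm10b (ENSMUSG00000089847) at 7.98 and Timm23 at 0.04, where the others were at 0. The normal pulldown of biosample 3 stood apart for Ndufaf3 (10.85 CPM) and Timm8a1 (1.03 CPM), and that of biosample 4 for Coa6 (6.03 CPM). Timm21 in normal input of biosample 4 was at 3.05 CPM. Among paclitaxel libraries, Timm22 was at 66.11 CPM in pulldown 5 (others 46.86 to 50.11), Ndufaf3 at 3.48 CPM in input 6 and 6.435 CPM in pulldown 7, and Cox14 at 371.1 CPM in pulldown 8. The Ndufaf3 value of pulldown 7 averages 0.09 and 12.78 CPM in its subsamples, where the other paclitaxel pulldowns were at 10.31 to 10.88 CPM.

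For Coa3 and Tomm6, all 4 normal pulldowns were below and all 4 paclitaxel pulldowns above their own inputs. The difference between treatments was 0.59 for Coa3 and 0.74 for Tomm6 on the log2 scale, and neither passed limma's interaction test (adjusted p = 0.431 and 0.282).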

How the results depend on the processing

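No called gene reversed under any alternative run. In normal ganglia the 4 higher calls became 8 with median-ratio scaling, quantile normalization or edgeR, and 2 without the intensity trend, with subsample 1 of biosample 7 alone or with no replicate block. The 9 lower calls became 3, 2 and 0 under those scalings, 4 without the trend, 4 with subsample 1, 5 with no replicate block and 2 without biosamples 1, 2, 5 and 6. After paclitaxel the 5 higher calls became 11, 9 and 10 under those scalings, 2 without the trend, 10 at a threshold of 0.1, 1 with no replicate block, 3 with the replicate block as a random effect and 3 without biosamples 1, 2, 5 and 6. The 1 lower call became 4 at a threshold of 0.1 and 2 with either subsample alone. With subsample 2 alone these did not include Cox15, the gene of the 1 lower call. There were 0 lower calls with a pseudocount of 0.1, no filter, the other scalings, no replicate block or without biosamples 1, 2, 5 and 6. Leaving out 1 biosample gave 1 to 5 higher and 4 to 9 lower calls in normal and 2 to 7 higher and 0 to 1 lower in paclitaxel ganglia.

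Between treatments in TRAP, the 2 higher calls became 0 with no filter, no trend or without biosamples 1, 2, 5 and 6, 1 with median-ratio scaling or subsample 1, and 4 with a filter of 5 CPM, robust estimation or a threshold of 0.1, and 0 to 3 with 1 biosample left out. The 0 lower calls became 1 with a filter of 5 CPM, 2 under the other scalings or a threshold of 0.1, and 0 to 1 with 1 left out. In input, the 0 higher calls became 2 at a threshold of 0.1, 1 without biosamples 1, 2, 5 and 6 and 0 to 4 with 1 left out, and the 0 lower calls 1 with median-ratio scaling or edgeR, 2 at a threshold of 0.1 and 0 to 1 with 1 left out. The interaction gave 0 calls throughout. The causes were not tested. Values under 3 reads (0.0917 to 0.703 CPM) were taken as not measurable. A value above this level can still be uncertain. In paclitaxel pulldown 7, Tomm40l was at 0 in subsample 1 and 48.5 CPM in subsample 2.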
